A study of Mus musculus with 9 samples.

Results

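The genes described here encode the nuclear subunits of oxidative phosphorylation, together with a few assembly factors and related proteins whose symbols share the same stems. Members were all gene rows whose symbol begins with Nduf followed by a, b, c, s or v, is Sdha to Sdhd, or begins with Uqcr, Cox4 to Cox8 or Atp5, with pseudogene symbols left out. This gave 92 of the 24503 gene rows, and 87 of them passed the filter on low counts and were tested. Subunits encoded by mitochondrial DNA were not analysed here. The study sequenced mRNA from primary mouse neural stem cells of the E13.5 embryonic cortex, enriched as neurospheres and expanded on laminin with FGF and EGF. Cells of every group were wild type and homozygous for a floxed Phf2 allele (Phf2flox/flox). They had been transduced with viral hairpin RNAs: shRad21_2, the second hairpin against Rad21; shRad21_1, the first hairpin against Rad21; or shNT, a non-targeting control hairpin. Each group had 3 libraries. Nothing in the labels says that these came from separate cultures or animals, so the p-values cover library-to-library spread only, and that spread may be technical. The time from infection to harvest was not stated.

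In oxidative phosphorylation, complex I (NADH dehydrogenase) and complex II (succinate dehydrogenase, also an enzyme of the TCA cycle) pass electrons to ubiquinone. Complex III (the cytochrome bc1 complex) and complex IV (cytochrome c oxidase) carry them on to oxygen, and complex V (ATP synthase) uses the resulting proton gradient to make ATP. All of complex II is nuclear-encoded, whereas the other complexes also hold subunits made inside the mitochondrion. Neural stem cells are known for a largely glycolytic metabolism, with oxidative phosphorylation gaining weight as they differentiate.

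Many nuclear genes of this pathway are known to have promoters bound by NRF1, by ETS factors such as GABP, or by YY1. RefSeq windows on GRCm38.p6, from 250 bases before to 50 after the transcription start, were found for 76 of the 92 genes. On either strand, the NRF1 core GCATGCGC lay in 15.8% of the 76, against 3.05% of the 27025 genes with such a RefSeq window and 3.94% of the 17492 protein-coding genes among them. The ETS and GABP core CCGGAAG lay in 22.4%, against 9.93% of all and 12.9% of coding genes. The YY1 core AAGATGGC lay in 14.5%, against 3.19% of all and 3.57% of coding genes. The letters of the NRF1 core nearly mirror themselves, so that matches on opposite strands can overlap. At least 1 of the motifs was found in 44.7% of the members with a window, against 14.9% of all genes and 18.7% of coding genes. Of the 10 members that fell under shRad21_2, 8 had a window and 2 of these held a motif. Of the 75 members that were tested and not called, 65 had a window and 31 held a motif. A match is a description of these letters and not a binding site.

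The windows of 6 members are shown as examples, and no result below rests on them. Whether motifs went with calls was not tested. Sdha (chr13:74350191-74350490, minus strand), Sdhd (chr9:50603800-50604099, minus strand), Atp5f1 (chr3:105959214-105959513, minus strand) and Ndufaf7 (chr17:78936885-78937184, plus strand) fell under shRad21_2. Sdhb (chr4:140961021-140961320, plus strand) and Uqcrc1 (chr9:108936398-108936697, plus strand) were not called. Each is written 5′ to 3′ on the strand of the gene, with motif matches in capitals.
Sdha: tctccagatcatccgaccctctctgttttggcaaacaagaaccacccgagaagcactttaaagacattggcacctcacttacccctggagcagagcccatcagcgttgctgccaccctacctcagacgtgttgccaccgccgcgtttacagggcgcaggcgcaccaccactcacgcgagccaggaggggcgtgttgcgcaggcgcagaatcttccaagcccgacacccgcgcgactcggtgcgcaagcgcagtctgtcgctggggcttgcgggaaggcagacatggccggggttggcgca
Sdhd: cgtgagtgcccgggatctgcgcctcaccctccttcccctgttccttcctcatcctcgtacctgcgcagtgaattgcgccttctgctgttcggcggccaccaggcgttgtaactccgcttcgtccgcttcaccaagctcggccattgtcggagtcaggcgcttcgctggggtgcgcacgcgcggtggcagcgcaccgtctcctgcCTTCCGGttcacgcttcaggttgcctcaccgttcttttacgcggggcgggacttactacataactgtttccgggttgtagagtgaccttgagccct
Atp5f1: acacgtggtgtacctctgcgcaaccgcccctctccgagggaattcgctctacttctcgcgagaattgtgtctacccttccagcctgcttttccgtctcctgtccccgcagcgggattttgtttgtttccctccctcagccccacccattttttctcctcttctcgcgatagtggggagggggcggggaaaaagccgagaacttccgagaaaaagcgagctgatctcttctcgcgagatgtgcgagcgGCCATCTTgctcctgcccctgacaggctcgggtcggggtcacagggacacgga
Ndufaf7: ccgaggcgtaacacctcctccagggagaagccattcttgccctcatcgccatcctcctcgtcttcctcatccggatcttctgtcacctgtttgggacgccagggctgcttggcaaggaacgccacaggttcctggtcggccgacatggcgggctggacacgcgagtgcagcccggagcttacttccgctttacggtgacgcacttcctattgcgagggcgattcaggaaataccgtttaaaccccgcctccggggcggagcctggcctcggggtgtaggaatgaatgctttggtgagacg
Sdhb: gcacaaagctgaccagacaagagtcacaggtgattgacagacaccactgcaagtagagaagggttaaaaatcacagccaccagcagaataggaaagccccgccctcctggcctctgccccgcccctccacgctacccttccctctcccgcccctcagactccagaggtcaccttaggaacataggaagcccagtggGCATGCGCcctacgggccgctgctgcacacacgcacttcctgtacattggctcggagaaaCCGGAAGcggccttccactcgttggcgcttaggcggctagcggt
Uqcrc1: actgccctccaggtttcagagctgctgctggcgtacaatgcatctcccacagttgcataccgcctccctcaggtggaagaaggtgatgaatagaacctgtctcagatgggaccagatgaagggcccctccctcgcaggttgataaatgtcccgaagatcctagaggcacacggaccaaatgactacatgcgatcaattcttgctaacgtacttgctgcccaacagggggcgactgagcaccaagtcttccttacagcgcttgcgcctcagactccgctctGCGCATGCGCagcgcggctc
Sdhd carried the ETS core on the opposite strand upstream of its start, and Atp5f1 the YY1 core on the opposite strand close to its start. Sdhb held an NRF1 and an ETS core, and Uqcrc1 a pair of overlapping NRF1 matches. The windows of Sdha and Ndufaf7 held none of the letters searched.

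Rad21, the gene targeted, which encodes the kleisin of the cohesin ring, had 82.0, 91.2 and 82.5 CPM in shRad21_2, 187, 174 and 178 CPM in shRad21_1, and 531, 449.8 and 456 CPM in shNT. CPM here are counts relative to library totals scaled by the TMM method of edgeR. Its level fell under shRad21_2 (log2 fold change -2.49, SE 0.09, edgeR adjusted p = 2.83e-07) and under shRad21_1 (log2 fold change -1.41, SE 0.09, edgeR adjusted p = 1.66e-04), and was lower under shRad21_2 than under shRad21_1 (log2 fold change -1.08, SE 0.09, edgeR adjusted p = 5.55e-05). Libraries held between 34780003 and 46644607 counts, of which the 92 genes took 1.16% to 1.37%. The neural stem cell markers summed to 7749 to 8814 CPM in shRad21_2, 7382 to 8883 CPM in shRad21_1 and 9094 to 9442 CPM in shNT, and none of the 12 was at 0 throughout a group. The 7 astrocyte markers summed to 75.8 to 95.5 CPM in shRad21_2, 154 to 480.0 CPM in shRad21_1 and 582 to 632 CPM in shNT, and none of the 7 was at 0 throughout a group. The 6 markers of the oligodendrocyte lineage summed to 7.84 to 9.30 CPM in shRad21_2, where Sox10 and Mog were at 0, 24.0 to 47.1 CPM in shRad21_1 and 69.7 to 73.1 CPM in shNT. The 8 neuron markers summed to 950.3 to 1081 CPM in shRad21_2, 900.9 to 1036 CPM in shRad21_1 and 762 to 906 CPM in shNT. Map2 made up nearly all of these sums, with means of 989, 885 and 793 CPM in that order. Under shRad21_2 only Map2 was called higher (log2 fold change 0.32, edgeR adjusted p = 0.0155). Dcx, Snap25 and Rbfox3, at low levels, were called lower there (-2.81, -3.03 and -1.29, edgeR adjusted p = 0.00339, 0.00408 and 0.0376). Under shRad21_1 only Syt1 was called, as higher (2.65, edgeR adjusted p = 0.00775). Microglia, endothelium and mesenchyme markers summed to at most 4.66 CPM in any library. The first libraries of shNT and shRad21_1 stood apart from the other libraries of their groups. Counts differed by a chi-square per gene of 3.19 between shNT replicates 2 and 3 and of 2.18 between shRad21_1 replicates 2 and 3, against 23.05 to 69.8 for the other pairs within groups.

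Under shRad21_2 most of the pathway was not called as changed, with a minority of genes lower and 2 assembly factors higher. Of the 87 tested members, 2 rose and 10 fell. Among all 13560 tested genes, 43.6% were called, 21.1% higher and 22.5% lower, so the 12 called members were a smaller share than the background. A gene was called at a Benjamini-Hochberg adjusted p under 0.05 in the quasi-likelihood test of edgeR. The median log2 fold change of the members was -0.01, against 0.01 for all tested genes, and 47 of the 87 values were below 0. With unscaled library totals the median was -0.08, 69 values were below 0, and 1 member rose and 14 fell. The counts rested on few libraries: 5 fell without shNT replicate 3, 15 fell without shRad21_2 replicate 3, 10 rose without shRad21_2 replicate 2, and 0 rose without shNT replicate 2 or 3 or shRad21_2 replicate 3. Under shRad21_1, 0 members rose and 6 fell, where 9.82% of all genes were called, 4.19% higher and 5.63% lower. At an unadjusted p under 0.05, 26 members passed, and the DESeq2 Wald test and limma-voom each called 7 lower and 0 higher. The median was -0.15, against 0.01 for all genes, and 82 of the 87 values (94.3%) were below 0, against 49.1% of all tested genes. The 5 values above 0 belonged to Ndufaf4 (0.21), Cox6a2 (0.13), Ndufa1 (0.06), Ndufaf6 (0.05) and Ndufa11 (0.02), and none of the 5 was called. Without any single library of shRad21_1 or shNT, 0 to 2 members fell under shRad21_1, whereas 10 fell without shRad21_2 replicate 2 or 3, which enter the shared estimate of the spread. These comparisons share the shNT libraries. In bulk RNA, fewer cells of a type and less RNA per cell cannot be told apart, and the part of the astrocyte, oligodendrocyte lineage and neuron markers in these results was not tested.

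**Figure D1:**
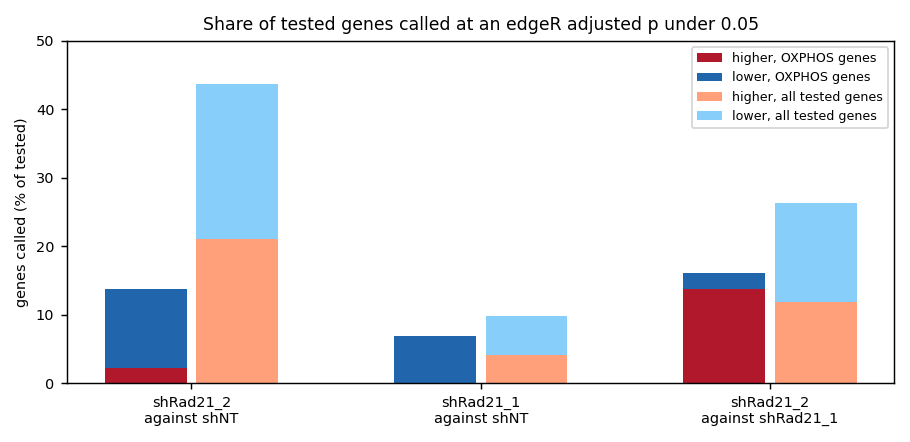
Share of tested genes called at an edgeR adjusted p under 0.05, in percent, for the 87 tested oxidative phosphorylation (OXPHOS) genes (left bar of each pair, dark) and all 13560 tested genes (right bar, light), stacked by direction. Under shRad21_2 the OXPHOS bar holds 2.30% higher and 11.5% lower genes, against 21.1% and 22.5% of all genes.

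Summed over all tested members, the libraries held 12640, 11881 and 14109 CPM in shRad21_2, 11744, 11472 and 11418 CPM in shRad21_1, and 13437, 12769 and 13032 CPM in shNT. All libraries of shRad21_1 lay below all those of shNT, whereas shRad21_2 overlapped with shNT, its replicate 3 above and its replicates 1 and 2 below every shNT library. Relative to the shNT mean, the median member stood at -0.11, -0.14 and 0.15 on the log2 scale in shRad21_2, at -0.11, -0.16 and -0.17 in shRad21_1, and at 0.02, -0.03 and 0.01 in shNT. Replicate 3 of shRad21_2 was the highest library of its group in 74 of the 87 members (85.1%), against 32.1% of all tested genes, and replicate 2 in 0 members. Without replicate 3 the median for shRad21_2 against shNT was -0.09, and without replicate 2 it was 0.04.

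**Figure D2:**
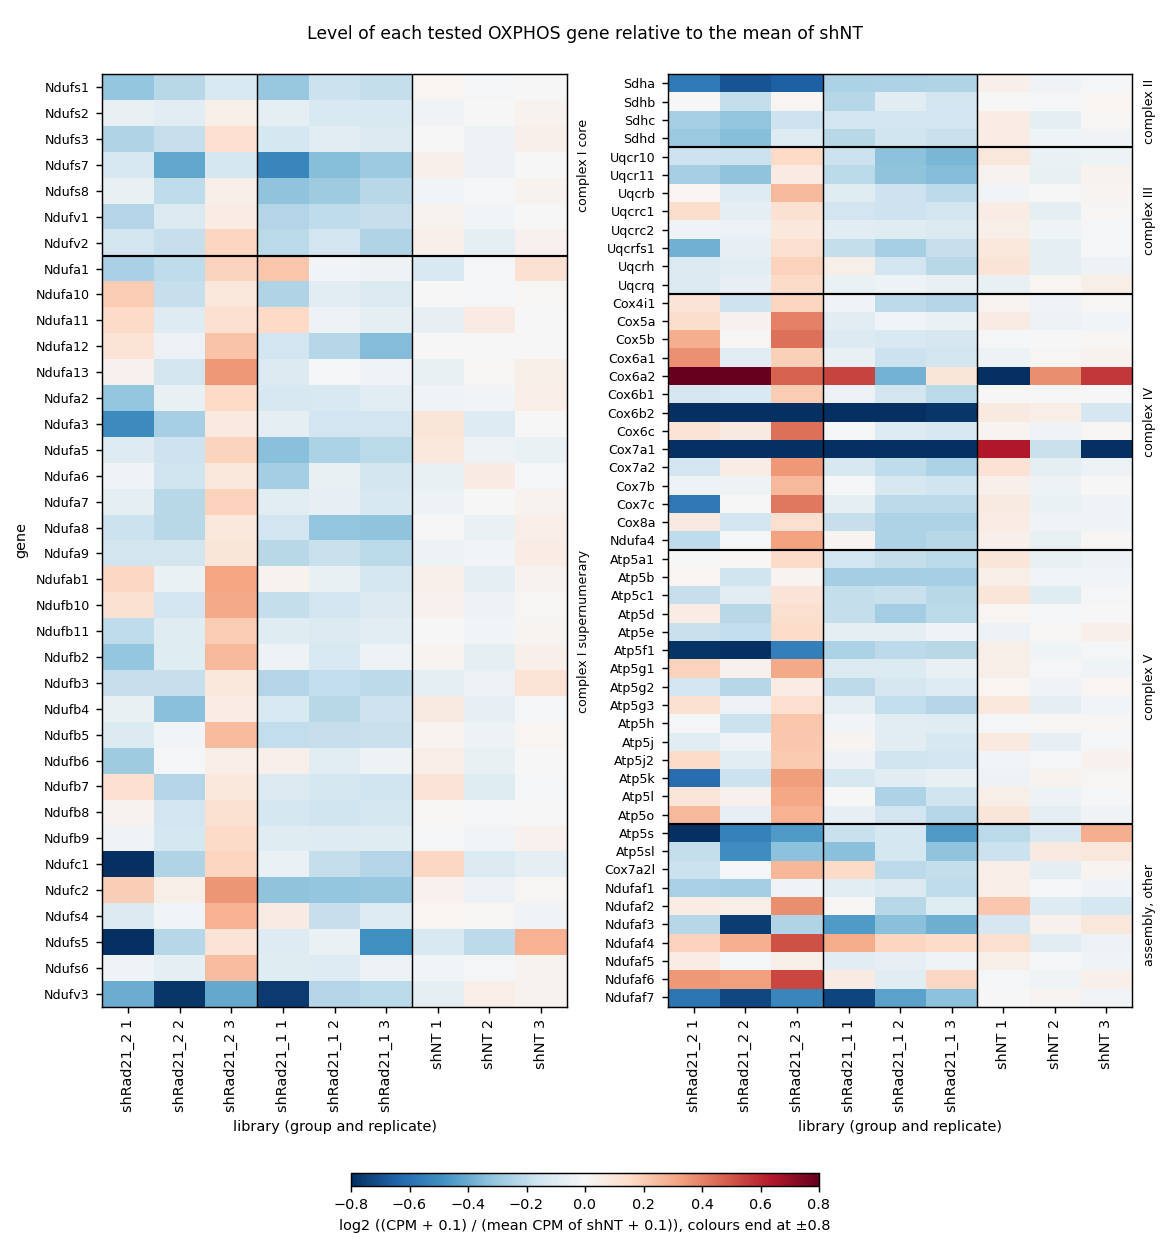
Level of each of the 87 tested OXPHOS genes (rows, by complex) in each of the 9 libraries (columns), as log2 of CPM + 0.1 over the shNT mean + 0.1; colours end at 0.8 in either direction. Replicate 3 of shRad21_2 was the highest library of its group in 74 genes, while Sdha, Atp5f1, Cox6b2 and Ndufaf7 were lower than shNT in all 6 hairpin libraries.

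Transcript length moved with these library differences. Most members are short: the principal transcript in GENCODE (vM21, the same build) was under 1 kb in 52 of the 86 tested members with a length, and the median was 760.5 bases. Across the 780 tested genes with transcripts under 1 kb, the median level relative to shNT was 0.03, -0.02 and 0.22 (log2) in shRad21_2 replicates 1, 2 and 3. Across the 4297 genes with transcripts of 4 kb and over it was -0.02, 0.09 and -0.14. The median fold change of genes under 1 kb was 0.09 (log2) under shRad21_2, where the 52 members of that length had a median of -0.0037. Under shRad21_1 it was -0.03 for all such genes and -0.14 for the members. The 26 members of 1 to 2 kb had a median of -0.04 under shRad21_2, against 0.03 for all genes of that length. For the 8 members of 2 to 4 kb it was -0.23, against -0.004. Under shRad21_1 the members of these lengths had medians of -0.17 and -0.20, against -0.03 and -0.0043. The part of transcript length in the members' fold changes was not tested.

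Complex II was lower under shRad21_2 in 3 of its 4 genes (75%), against 22.5% of all tested genes. It was the only one of the 7 classes of members whose summed level did not overlap between shRad21_2 and shNT. Complex II also had the longest transcripts of the classes, with a median of 2065.5 bases against 760.5 for all members. The part of transcript length in this difference between the classes was not tested. The 4 transcripts of complex II summed to 639, 594 and 651 CPM in shRad21_2, 701, 720.0 and 715 CPM in shRad21_1, and 843, 799 and 816 CPM in shNT. The means were 628 ± 29.9, 712 ± 9.69 and 819 ± 22.3 CPM (SD, n = 3 each). The summed levels of the 3 groups therefore stood apart in every library, with shRad21_2 lowest. Sdha, with the largest fold change and the highest level of the 4, weighed most in these sums. In shRad21_2 against shRad21_1, Sdha stood at -0.39 (log2), Sdhb at 0.10, Sdhc at -0.09 and Sdhd at -0.06, and only Sdha was called.

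Sdha, the flavoprotein that oxidises succinate, had 263, 242 and 248 CPM in shRad21_2, 327, 329 and 331 CPM in shRad21_1, and 402, 383 and 387 CPM in shNT. It fell under shRad21_2 (log2 fold change -0.64, SE 0.06, edgeR adjusted p = 5.58e-05), and no library of the groups overlapped. This call held in all 16 alternatives tried, with log2 fold changes between -0.71 and -0.61. It fell less under shRad21_1 (log2 fold change -0.25, SE 0.06, edgeR adjusted p = 0.0361), and the difference between the hairpins passed the test itself (log2 fold change -0.39, SE 0.06, edgeR adjusted p = 0.00232). The shRad21_1 call did not hold without any single library of shRad21_1 or shNT (adjusted p 0.0561 to 0.131), although the fold change stayed between -0.26 and -0.23. That call was also lost with close pairs of libraries summed.

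Sdhc and Sdhd encode the membrane anchor of complex II, where ubiquinone is reduced. Sdhc had 142, 137 and 152 CPM in shRad21_2, 153, 153 and 153 CPM in shRad21_1, and 177, 162 and 171 CPM in shNT. Its libraries did not overlap between shRad21_2 and shNT, and it fell under shRad21_2 (log2 fold change -0.25, SE 0.07, edgeR adjusted p = 0.0143). The call did not hold without shNT replicate 3 (edgeR adjusted p = 0.0564) or with close pairs of libraries summed (0.0737). Sdhd had 107, 104 and 122 CPM in shRad21_2, 112, 118 and 116 CPM in shRad21_1, and 137, 128 and 128 CPM in shNT. It fell under shRad21_2 (log2 fold change -0.24, SE 0.08, edgeR adjusted p = 0.0272), again without overlap. That call did not hold without shNT replicate 1, 2 or 3 or shRad21_2 replicate 1 or 2 (adjusted p 0.0629 to 0.0835). Under shRad21_1, Sdhc stood at -0.15 and Sdhd at -0.19, and neither passed (edgeR adjusted p = 0.181 and 0.155).

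Sdhb, the iron-sulphur subunit that relays electrons from Sdha to the anchor, did not pass the test. It had 128, 112 and 129 CPM in shRad21_2, 109, 120.4 and 115 CPM in shRad21_1, and 128, 126 and 129 CPM in shNT. The shRad21_2 and shNT libraries overlapped (log2 fold change -0.05, SE 0.08, edgeR adjusted p = 0.586). Per kilobase of principal transcript, shNT libraries held 134.7 ± 3.44 CPM of Sdha, 112 ± 1.26 of Sdhb, 106 ± 4.02 of Sdhd and 53.6 ± 2.40 of Sdhc (SD, n = 3). In shRad21_2 the same levels were 86.6 ± 3.81 for Sdha, 108 ± 8.35 for Sdhb, 89.9 ± 7.97 for Sdhd and 45.2 ± 2.39 for Sdhc. Sdha thus stood above Sdhb in every shNT library and below it in every shRad21_2 library.

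**Figure D3:**
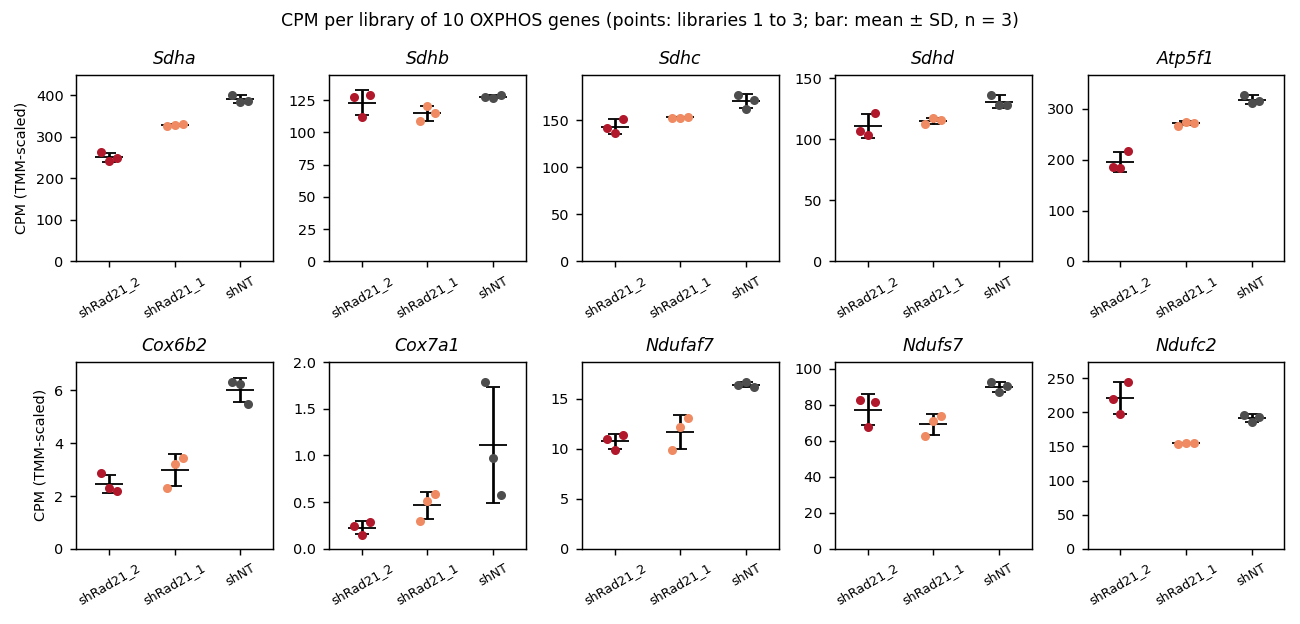
CPM per library (points) of 10 OXPHOS genes in shRad21_2, shRad21_1 and shNT, with the mean and SD of 3 libraries; every axis starts at 0. Sdha averages 251 CPM in shRad21_2, 329 in shRad21_1 and 391 in shNT, and the points of the 3 groups do not overlap.

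Among the 15 genes of complex V, 1 fell under shRad21_2, 1 fell under shRad21_1, and the 2 were different genes. Atp5f1, subunit b of the peripheral stalk that holds the catalytic head still, had 185, 183 and 218 CPM in shRad21_2, 267, 275 and 273 CPM in shRad21_1, and 328, 311 and 316 CPM in shNT. Its libraries stood apart in all 3 groups, with shRad21_2 lowest. The level fell under shRad21_2 (log2 fold change -0.70, SE 0.08, edgeR adjusted p = 1.15e-04) and was lower under shRad21_2 than under shRad21_1 (log2 fold change -0.48, SE 0.08, edgeR adjusted p = 0.00263). Both calls held in all 16 alternatives. Under shRad21_1 its fold change was -0.23 (SE 0.08, edgeR adjusted p = 0.0986). Exons of Atp5f1 overlap those of Wdr77 on the opposite strand, and the strand setting of the counts was not given. Wdr77, a partner of an arginine methyltransferase, moved the other way under shRad21_2 (log2 fold change 0.36, SE 0.08, edgeR adjusted p = 0.00437).

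Atp5b, the catalytic beta subunit and the member with the highest level per kilobase, had 2287, 2028 and 2290.3 CPM in shRad21_2, 1873, 1869 and 1879 CPM in shRad21_1, and 2331, 2224 and 2224 CPM in shNT. Its shRad21_1 libraries lay within a narrow band below all shNT libraries, and it fell under shRad21_1 (log2 fold change -0.27, SE 0.07, edgeR adjusted p = 0.0424). The call was lost with the replicate number as a block (edgeR adjusted p = 0.0585) and with close pairs of libraries summed. It was also lost without any single library of shRad21_1 or shNT (0.0575 to 0.137). Under shRad21_2 Atp5b stood at -0.04 (SE 0.07, edgeR adjusted p = 0.698), with overlap. Atp5a1, the alpha subunit of the same head, had 1178, 1184 and 1311 CPM in shRad21_2, 1058, 1033 and 1014 CPM in shRad21_1, and 1259, 1131 and 1144 CPM in shNT. It did not pass under either hairpin (0.06 under shRad21_2 and -0.19 under shRad21_1).

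The c subunit of the rotor ring is encoded by 3 genes with the same mature product, and none of them was called against shNT. Atp5g1 had 123, 111 and 133 CPM in shRad21_2, 100.3, 100.4 and 104 CPM in shRad21_1, and 111, 107 and 105 CPM in shNT. Atp5g2 had 247, 234 and 285 CPM in shRad21_2, 237, 249.6 and 254 CPM in shRad21_1, and 277, 268 and 276 CPM in shNT. Atp5g3 had 358, 318 and 361 CPM in shRad21_2, 312, 286 and 279 CPM in shRad21_1, and 349, 313 and 325 CPM in shNT. Their log2 fold changes under shRad21_2 were 0.18, -0.10 and 0.07, and under shRad21_1 they were -0.09, -0.15 and -0.17. Atp5o, the protein that joins the stalk to the head, had 282, 226 and 286 CPM in shRad21_2, 226, 212 and 201 CPM in shRad21_1, and 252, 224 and 231 CPM in shNT. Atp5l, subunit g of the membrane part, had 109, 104 and 127 CPM in shRad21_2, 102, 85.8 and 91.4 CPM in shRad21_1, and 105, 99.3 and 101 CPM in shNT. Both overlapped with shNT under shRad21_2, at 0.17 for Atp5o and 0.15 for Atp5l, and neither passed (edgeR adjusted p = 0.201 and 0.206).

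In complex IV, 14 of 19 genes were tested, and the 2 that fell under shRad21_2 are isoforms known from other tissues. Cox6b2, known as the testis isoform of subunit 6B, had 2.86, 2.32 and 2.20 CPM in shRad21_2, 2.31, 3.20 and 3.46 CPM in shRad21_1, and 6.32, 6.23 and 5.48 CPM in shNT. Cox6b2 fell under shRad21_2 (log2 fold change -1.29, SE 0.19, edgeR adjusted p = 6.34e-04) and under shRad21_1 (log2 fold change -1.01, SE 0.19, edgeR adjusted p = 0.0109), with no overlap with shNT in either case. The shRad21_2 call held in all 16 alternatives. The shRad21_1 call did not hold without shNT replicate 2 (edgeR adjusted p = 0.0553) or with close pairs of libraries summed (0.0954). The somatic form Cox6b1 was far more abundant, with 169, 171 and 214 CPM in shRad21_2, 179.9, 168 and 160.1 CPM in shRad21_1, and 186, 186 and 187 CPM in shNT, and stood at -0.01 (SE 0.10, edgeR adjusted p = 0.944) under shRad21_2.

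Cox7a1, the isoform of heart and skeletal muscle, was close to the limit of detection, with 0.244, 0.147 and 0.285 CPM in shRad21_2, 0.299, 0.507 and 0.585 CPM in shRad21_1, and 1.79, 0.968 and 0.577 CPM in shNT. The shNT libraries differed widely among themselves, and all shRad21_2 libraries lay below the lowest of them. Cox7a1 fell under shRad21_2 (log2 fold change -2.27, SE 0.50, edgeR adjusted p = 0.00476) and stood at -1.24 (SE 0.46, edgeR adjusted p = 0.116) under shRad21_1. Of 6 muscle markers, Ckm was at 0 in every library, and Tnnt2, Acta1 and Des were at most 0.189 CPM in any. The sum of the 6 was 19.5 to 28.1 CPM in shRad21_2, 9.84 to 10.6 in shRad21_1 and 14.8 to 17.2 in shNT. Nearly all of it came from Myh7 (means 19.2, 8.72 and 13.1 CPM in that order) and Myh6 (3.91, 1.46 and 2.57). The widely expressed form Cox7a2 had 84.4, 97.6 and 119 CPM in shRad21_2, 85.7, 81.5 and 78.7 CPM in shRad21_1, and 102, 88.7 and 90.9 CPM in shNT, with a fold change of 0.10 (SE 0.12, edgeR adjusted p = 0.520) under shRad21_2. Cox7a2l, a related protein of the supercomplexes, had 80.7, 89.9 and 109 CPM in shRad21_2, 101, 78.5 and 79.7 CPM in shRad21_1, and 94.1, 86.3 and 92.2 CPM in shNT and stood at 0.04 (SE 0.13, edgeR adjusted p = 0.828).

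The other paralogue sets showed the same order of levels in each group, with the common form high and the tissue form near 0. Cox4i1, which encodes the common form of subunit 4, had 383, 318 and 403 CPM in shRad21_2, 350.1, 309 and 304 CPM in shRad21_1, and 363, 349.8 and 359 CPM in shNT. Cox4i2, known as a lung form that responds to hypoxia, had 0.0221, 0 and 0.0285 CPM in shRad21_2, 0, 0.213 and 0.106 CPM in shRad21_1, and 0.0550, 0.165 and 0.133 CPM in shNT, and was not tested. Cox6a1 had 271, 197 and 239.5 CPM in shRad21_2, 201, 186 and 189.6 CPM in shRad21_1, and 204, 211 and 214 CPM in shNT. Cox6a2, its muscle form, had 1.75, 1.09 and 0.514 CPM in shRad21_2, 0.544, 0.240 and 0.372 CPM in shRad21_1, and 0, 0.472 and 0.554 CPM in shNT, and it did not pass under shRad21_2 (log2 fold change 1.67, SE 0.76, edgeR adjusted p = 0.0977). Replicate 1 of shNT held 0 counts of it. Cox7b had 112, 112 and 138 CPM in shRad21_2, 114, 105 and 103 CPM in shRad21_1, and 119, 112 and 115 CPM in shNT, while Cox7b2 was at 0 in all 9 libraries. Cox8a had 268, 230.0 and 278 CPM in shRad21_2, 224, 215 and 215 CPM in shRad21_1, and 266, 249.6 and 248 CPM in shNT. Cox8b had 0, 0 and 0.0285 CPM in shRad21_2, 0.136, 0 and 0 CPM in shRad21_1, and 0, 0.0236 and 0.0222 CPM in shNT, and Cox8c was at 0 in all 9. A count of 0 allows up to 0.0643 to 0.0863 CPM on unscaled library totals, depending on the library, for counting error only. Ndufa4, first named as a complex I subunit and now placed in complex IV, had 116, 133 and 168 CPM in shRad21_2, 136, 113 and 115 CPM in shRad21_1, and 138, 129 and 135 CPM in shNT. Its relative Ndufa4l2 had 0.0443, 0 and 0.114 CPM in shRad21_2, 0.0272, 0.133 and 0.0532 CPM in shRad21_1, and 0.110, 0.212 and 0.200 CPM in shNT, and was not tested. None of Cox4i1, Cox6a1, Cox7b, Cox8a and Ndufa4 was called against shNT, with log2 fold changes of 0.04, 0.17, 0.07, 0.02 and 0.05 under shRad21_2.

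A further pair of complex IV genes lay high in shRad21_2 and missed the threshold. Cox5b, a zinc-binding subunit on the matrix side, had 148, 122 and 164 CPM in shRad21_2, 112, 111 and 110.4 CPM in shRad21_1, and 119.5, 122 and 122 CPM in shNT and stood at 0.26 (SE 0.10, edgeR adjusted p = 0.0563). Cox6c, a small membrane subunit, had 162, 158 and 204 CPM in shRad21_2, 149, 139.9 and 137 CPM in shRad21_1, and 152, 147 and 151 CPM in shNT. Its shRad21_2 libraries did not overlap with shNT (log2 fold change 0.22, SE 0.10, edgeR adjusted p = 0.0936). In both genes replicate 3 was the highest library.

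Of the 7 core subunits of complex I, 1 fell under shRad21_2 and another under shRad21_1, and all 7 fold changes were below 0 under each hairpin. Ndufs1, the largest subunit of the NADH-oxidising module, had 128, 135 and 146 CPM in shRad21_2, 128, 141 and 139 CPM in shRad21_1, and 160.3, 156 and 158 CPM in shNT. Ndufs1 fell under shRad21_2 (log2 fold change -0.22, SE 0.07, edgeR adjusted p = 0.0335) and had the same fold change under shRad21_1 without passing (log2 fold change -0.22, SE 0.07, edgeR adjusted p = 0.0816). The shRad21_2 call did not hold without any single library of shRad21_2 or shNT except shRad21_2 replicate 3 (adjusted p 0.0594 to 0.0970). That call was also lost with close pairs of libraries summed. Exons of Ndufs1 overlap those of Ino80dos on the opposite strand, which stood at 2.42 CPM in shRad21_2, 2.68 in shRad21_1 and 1.99 in shNT on average. Ndufs7, which carries the last iron-sulphur cluster before ubiquinone, had 82.5, 67.4 and 81.6 CPM in shRad21_2, 62.7, 70.9 and 73.4 CPM in shRad21_1, and 92.6, 87.1 and 90.2 CPM in shNT. It fell under shRad21_1 (log2 fold change -0.38, SE 0.10, edgeR adjusted p = 0.0328), a call that did not hold without any single library of shRad21_1 or shNT (adjusted p 0.0556 to 0.117) or with close pairs of libraries summed. Under shRad21_2 it stood at -0.22 (SE 0.10, edgeR adjusted p = 0.0839), with no overlap.

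Ndufv1, which binds the flavin that accepts electrons from NADH, had 97.3, 106 and 119 CPM in shRad21_2, 97.4, 99.7 and 101 CPM in shRad21_1, and 117, 113 and 114 CPM in shNT. Ndufs3 had 81.8, 84.8 and 106 CPM in shRad21_2, 87.4, 90.7 and 88.9 CPM in shRad21_1, and 96.5, 93.9 and 99.1 CPM in shNT. Both were below shNT in all shRad21_1 libraries and overlapped with it in shRad21_2, and neither was called under shRad21_2 (-0.09 and -0.09) or under shRad21_1 (-0.21 and -0.12). The core genes summed to 884 ± 72.0 CPM in shRad21_2, 827 ± 13.6 CPM in shRad21_1 and 945 ± 15.1 CPM in shNT (SD, n = 3 each).

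Of the 29 supernumerary subunits of complex I, which surround the core and are not catalytic, 1 fell under each hairpin. Ndufv3, a small subunit of the NADH module, had 51.5, 39.6 and 51.1 CPM in shRad21_2, 39.7, 57.5 and 58.4 CPM in shRad21_1, and 64.1, 70.2 and 69.0 CPM in shNT. Ndufv3 fell under shRad21_2 (log2 fold change -0.52, SE 0.15, edgeR adjusted p = 0.0199) and did not pass under shRad21_1 (log2 fold change -0.39, SE 0.15, edgeR adjusted p = 0.138), where replicate 1 alone reached the shRad21_2 level. The shRad21_2 call did not hold without shNT replicate 2 or 3 or shRad21_2 replicate 2 (adjusted p 0.0605 to 0.0693). That call was also lost with close pairs of libraries summed (edgeR adjusted p = 0.0705). Ndufc2, a subunit of the membrane arm, had 220.1, 198 and 245 CPM in shRad21_2, 153, 155 and 155 CPM in shRad21_1, and 197, 186 and 193 CPM in shNT. Its libraries separated all groups, with shRad21_2 above and shRad21_1 below shNT. It fell under shRad21_1 (log2 fold change -0.31, SE 0.08, edgeR adjusted p = 0.0380) and stood at 0.20 (SE 0.08, edgeR adjusted p = 0.0659) under shRad21_2. The shRad21_1 call did not hold without any single library of shRad21_1 or shNT (adjusted p 0.0582 to 0.140) or with close pairs of libraries summed.

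Ndufa12, Ndufa3 and Ndufab1 were named by the same rule and were not called against shNT. Ndufa12, near the NADH module, had 130.5, 117 and 141 CPM in shRad21_2, 109, 103 and 95.1 CPM in shRad21_1, and 121, 121 and 121 CPM in shNT. Ndufa3 had 27.7, 32.8 and 41.6 CPM in shRad21_2, 37.3, 35.5 and 35.5 CPM in shRad21_1, and 42.2, 36.7 and 39.5 CPM in shNT. Ndufab1, the mitochondrial acyl carrier protein, had 99.4, 85.6 and 110.4 CPM in shRad21_2, 90.6, 85.0 and 80.4 CPM in shRad21_1, and 91.3, 84.3 and 90.4 CPM in shNT. In Ndufa3 and Ndufab1 all groups overlapped, and Ndufa12 was below shNT in all shRad21_1 libraries (-0.24 (SE 0.08, edgeR adjusted p = 0.102)). Across the 29 genes, log2 fold changes ran from -0.52 to 0.20 under shRad21_2 and from -0.39 to 0.06 under shRad21_1.

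In complex III, 0 of 8 genes were called under either hairpin. At an unadjusted p under 0.05, 0 passed under shRad21_2 and 2 under shRad21_1, and the DESeq2 Wald test and limma-voom called 0 under either. Other settings did make calls: Uqcr10 and Uqcr11 were lower under shRad21_1 in the fit of the 2 groups compared and without shRad21_2 replicate 3, and without that library Uqcr11 was also lower under shRad21_2. Uqcr11, a small membrane subunit, had 85.6, 82.5 and 108 CPM in shRad21_2, 88.6, 82.2 and 80.9 CPM in shRad21_1, and 105, 98.8 and 105 CPM in shNT. Uqcrc1, a core protein on the matrix side, had 286, 246 and 283 CPM in shRad21_2, 233, 232 and 234 CPM in shRad21_1, and 271, 247 and 261 CPM in shNT. Both were below shNT in all shRad21_1 libraries (-0.29 and -0.15), and overlapped with it in shRad21_2 (-0.16 and 0.07). Uqcrfs1, the Rieske iron-sulphur protein, had 127, 159 and 182 CPM in shRad21_2, 146, 138 and 146 CPM in shRad21_1, and 176, 157 and 165 CPM in shNT. Uqcrb, which helps to form the ubiquinone site, had 84.8, 78.1 and 100.4 CPM in shRad21_2, 78.2, 74.5 and 72.3 CPM in shRad21_1, and 82.5, 83.6 and 85.1 CPM in shNT. All 8 fold changes were below 0 under shRad21_1 (-0.29 to -0.05), and 4 of 8 were under shRad21_2 (-0.16 to 0.07). The summed level was 1132 ± 107 CPM in shRad21_2, 1019.9 ± 28.9 CPM in shRad21_1 and 1140.4 ± 39.6 CPM in shNT (SD, n = 3 each).

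**Figure D4:**
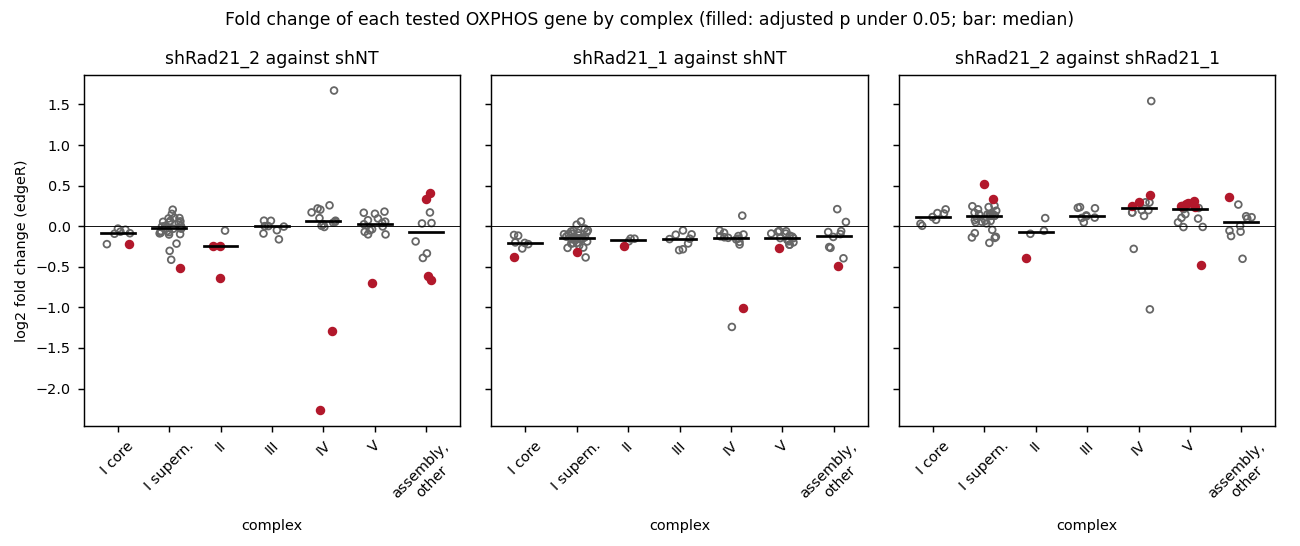
Log2 fold change (edgeR) of each tested OXPHOS gene by complex in the 3 comparisons; filled points have an adjusted p under 0.05 and bars are medians. Under shRad21_1 the median of every complex lies below 0, and in the comparison of the hairpins the filled points are 12 above 0 and 2 below.

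The assembly factors and other products with these stems held the 2 genes that rose under shRad21_2 and 2 that fell. These were 20% each of the 10 tested, near the 21.1% and 22.5% of all tested genes. Ndufaf7, a methyltransferase that modifies a core subunit during complex I assembly, had 10.9, 9.85 and 11.4 CPM in shRad21_2, 9.81, 12.1 and 13.0 CPM in shRad21_1, and 16.3, 16.7 and 16.2 CPM in shNT. It fell under shRad21_2 (log2 fold change -0.61, SE 0.12, edgeR adjusted p = 0.00300) and under shRad21_1 (log2 fold change -0.49, SE 0.12, edgeR adjusted p = 0.0328), with no overlap with shNT. The shRad21_2 call held in all 16 alternatives. The shRad21_1 call did not hold without any single shNT library or shRad21_1 replicate 2 (adjusted p 0.0724 to 0.121), or with close pairs of libraries summed. Atp5s, a factor related to the ATP synthase and now named Dmac2l, had 2.39, 3.26 and 3.45 CPM in shRad21_2, 4.21, 4.32 and 3.46 CPM in shRad21_1, and 4.10, 4.37 and 5.85 CPM in shNT. Atp5s fell under shRad21_2 (log2 fold change -0.66, SE 0.21, edgeR adjusted p = 0.0262), and the call did not hold without shNT replicate 3 (adjusted p 0.122) or shRad21_2 replicate 1 (0.0817). That call was also lost with close pairs of libraries summed.

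Ndufaf4 and Ndufaf6, both factors for the assembly of complex I, rose under shRad21_2. Ndufaf4 had 48.1, 51.8 and 60.4 CPM in shRad21_2, 52.2, 47.9 and 47.1 CPM in shRad21_1, and 46.4, 39.8 and 41.1 CPM in shNT (log2 fold change 0.33, SE 0.10, edgeR adjusted p = 0.0248). Ndufaf6 had 10.1, 9.97 and 11.5 CPM in shRad21_2, 8.29, 7.44 and 8.88 CPM in shRad21_1, and 7.86, 7.72 and 8.16 CPM in shNT (log2 fold change 0.41, SE 0.12, edgeR adjusted p = 0.0185). In both, all shRad21_2 libraries lay above all shNT libraries. Neither call held without shNT replicate 2 or 3 or shRad21_2 replicate 3 (adjusted p 0.0504 to 0.0978), or with close pairs of libraries summed. That of Ndufaf4 was also lost with library totals. Under shRad21_1 the genes stood at 0.21 and 0.05 without passing.

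Set against each other, the hairpins differed in 14 members, most of them higher under shRad21_2. In shRad21_2 against shRad21_1, 12 members were higher (13.8%) and 2 lower (2.30%). Among all genes 26.3% were called, 11.9% higher and 14.4% lower. The share of members higher was thus near that of all genes, and the share lower was smaller. The median was 0.13 for the members and -0.0022 for all tested genes, and 18 of 87 values were below 0. The lower genes were Sdha and Atp5f1, described above. The higher ones held 6 genes of complex V, 3 of complex IV, 2 supernumerary subunits of complex I and the assembly factor Ndufaf6. Ndufc2 had the largest difference (0.52 (SE 0.08, edgeR adjusted p = 0.00199)), and its call held in all 16 alternatives. Next were Cox5b at 0.38 (SE 0.10, edgeR adjusted p = 0.0194), Ndufaf6 at 0.36 (SE 0.12, edgeR adjusted p = 0.0491) and Ndufa12 at 0.34 (SE 0.08, edgeR adjusted p = 0.0160). Atp5o stood at 0.31 (SE 0.10, edgeR adjusted p = 0.0433), Cox6c at 0.30 (SE 0.10, edgeR adjusted p = 0.0462) and Atp5l at 0.28 (SE 0.09, edgeR adjusted p = 0.0482). Atp5g1 stood at 0.27 (SE 0.08, edgeR adjusted p = 0.0296), Cox8a at 0.25 (SE 0.08, edgeR adjusted p = 0.0469) and Atp5g3 at 0.24 (SE 0.08, edgeR adjusted p = 0.0494). The catalytic pair Atp5a1 and Atp5b stood at 0.24 and 0.23 (edgeR adjusted p = 0.0388 and 0.0389).

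Every one of these 12 genes lay higher in all shRad21_2 libraries than in all shRad21_1 libraries. The same libraries gave the calls, so this is no separate support for them. The upward count rested on few libraries: it was 1 without shRad21_1 replicate 2 or replicate 3, 2 without shRad21_2 replicate 3, and 24 without shRad21_2 replicate 2. Without shNT replicate 2 or 3, which enter the shared estimate of the spread, 5 members were called in either direction. Genes with transcripts under 1 kb had a median of 0.14 in this comparison, over the 780 tested and over the 52 members alike, and genes of 4 kb and over had -0.06. The part of transcript length in this difference was not tested.

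Genes that act beside the complexes were counted in the same fit. Among all tested genes, 21.1% were higher and 22.5% lower under shRad21_2, and 4.19% and 5.63% under shRad21_1. Among regulators of mitochondrial biogenesis, 9 of 19 rose (47.4%) and 1 fell (5.26%) under shRad21_2 (median log2 fold change 0.24). Under shRad21_1, 3 rose (15.8%) and 0 fell (median 0.07). Ppargc1a, the coactivator that drives respiratory gene expression, had 19.8, 22.7 and 20.2 CPM in shRad21_2, 33.1, 33.8 and 33.8 CPM in shRad21_1, and 39.0, 43.5 and 41.4 CPM in shNT and fell under shRad21_2 (log2 fold change -0.98, SE 0.09, edgeR adjusted p = 2.78e-05). Its relative Pprc1 had 136, 135 and 120.5 CPM in shRad21_2, 94.3, 96.8 and 96.6 CPM in shRad21_1, and 74.6, 71.8 and 68.0 CPM in shNT and rose under shRad21_2 (log2 fold change 0.87, SE 0.07, edgeR adjusted p = 2.22e-05) and shRad21_1 (log2 fold change 0.42, SE 0.07, edgeR adjusted p = 0.00725). Peo1, the mitochondrial DNA helicase, had 59.2, 53.3 and 54.0 CPM in shRad21_2, 46.2, 43.4 and 42.9 CPM in shRad21_1, and 37.3, 28.6 and 30.6 CPM in shNT and rose under both, at 0.79 and 0.46 (edgeR adjusted p = 3.17e-04 and 0.0242). Myc, a general growth regulator, stood at 1.04 (SE 0.16, edgeR adjusted p = 6.85e-04) under shRad21_2 and 0.72 (SE 0.16, edgeR adjusted p = 0.0202) under shRad21_1. The shRad21_1 call did not hold in 5 of 16 alternatives for Peo1, without shNT replicate 2 or 3 or shRad21_1 replicate 2 or 3 and with close pairs of libraries summed (adjusted p 0.0556 to 0.201). It did not hold in 5 for Myc, without shNT replicate 1 or 3 or shRad21_1 replicate 2 or 3 and with close pairs summed (0.0580 to 0.135). For Pprc1 it did not hold with close pairs summed (0.130). Without shNT replicate 3 or shRad21_1 replicate 2 or 3, 1 regulator rose under shRad21_1.

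Under shRad21_2 the ribosomal and import lists held more genes that rose than fell. Of 77 mitochondrial ribosomal protein genes, 21 rose (27.3%) and 3 fell (3.90%) under shRad21_2 (median 0.18), where 21.1% of all tested genes were higher and 22.5% lower, and 0 rose and 1 fell under shRad21_1 (-0.07). The number that rose was 13 without shNT replicate 2 or shRad21_2 replicate 3 and with library totals, 12 without shNT replicate 3, 33 without shRad21_2 replicate 2, and 6 with close pairs of libraries summed. Mrpl12 rose (0.45 (SE 0.09, edgeR adjusted p = 0.00313)), as did Mrpl20 (0.39 (SE 0.08, edgeR adjusted p = 0.00321)) and Mrps5 (0.45 (SE 0.09, edgeR adjusted p = 0.00366)), while Mrps6 fell (-1.46 (SE 0.20, edgeR adjusted p = 4.08e-04)). Of 23 import genes, 8 rose (34.8%) and 1 fell (4.35%) under shRad21_2 (0.22), with 5 rising without shNT replicate 2 or 3 and 3 with close pairs summed, and 0 were called under shRad21_1 (-0.04), where 0 passed an unadjusted p of 0.05. The channel genes Tomm40 (0.49 (SE 0.09, edgeR adjusted p = 0.00200)), Timm23 (0.35 (SE 0.07, edgeR adjusted p = 0.00359)) and Timm50 (0.35 (SE 0.08, edgeR adjusted p = 0.00599)) and the small subunit Tomm5 (0.53 (SE 0.12, edgeR adjusted p = 0.00448)) were among those that rose. Of 77 cytoplasmic ribosomal protein genes, 58 rose (75.3%) and 0 fell under shRad21_2 (0.41), and 0 were called under shRad21_1 (0.11), where 3 passed an unadjusted p of 0.05. In the import, cytoplasmic ribosome and hypoxia response lists, the DESeq2 Wald test and limma-voom also called 0 under shRad21_1, while the fit of the 2 groups compared called 4 cytoplasmic ribosomal genes higher and leaving out shRad21_1 replicate 1 called 4 hypoxia genes higher. Rpl23 rose (0.56 (SE 0.10, edgeR adjusted p = 0.00125)), with Rpl15 at 0.49 and Rps2 at 0.47.

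**Figure D5:**
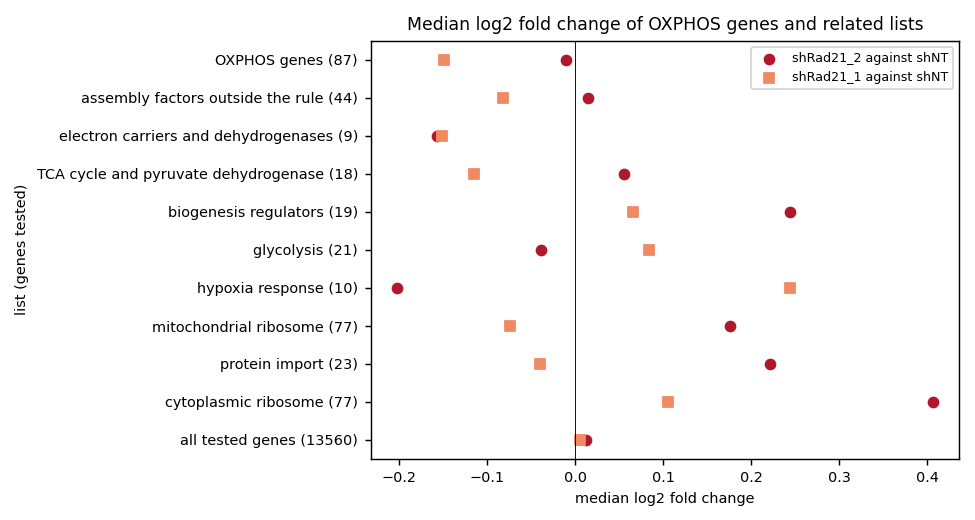
Median log2 fold change of the tested OXPHOS genes, of 9 related lists and of all tested genes (rows; number tested in brackets) under shRad21_2 (circles) and shRad21_1 (squares), each against shNT. The OXPHOS median is -0.01 under shRad21_2 and -0.15 under shRad21_1, while that of the cytoplasmic ribosome is 0.41 and 0.11.

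Enzymes that feed the chain were called in both directions under shRad21_2, as were all tested genes (21.1% higher and 22.5% lower). Of 18 genes of the TCA cycle and pyruvate dehydrogenase, 2 rose (11.1%) and 3 fell (16.7%) under shRad21_2 (median 0.06). Under shRad21_1, 0 rose and 1 fell (5.56%, against 5.63% of all genes), with a median of -0.11. The number that fell under shRad21_2 was 1 without any single shNT library, shRad21_2 replicate 2 or 3, or shRad21_1 replicate 3, and with the replicate number as a block. Pcx, which makes oxaloacetate from pyruvate, had 26.6, 23.9 and 21.7 CPM in shRad21_2, 43.1, 60.6 and 57.9 CPM in shRad21_1, and 122, 125 and 126 CPM in shNT. Pcx fell under shRad21_2 (log2 fold change -2.37, SE 0.13, edgeR adjusted p = 2.78e-06) and shRad21_1 (log2 fold change -1.20, SE 0.13, edgeR adjusted p = 7.10e-04), and the 3 groups did not overlap. Under shRad21_2, Pdha1 stood at 0.23 (SE 0.06, edgeR adjusted p = 0.0134) and Suclg2 at 0.51 (SE 0.13, edgeR adjusted p = 0.00922). The Pdha1 call did not hold without shNT replicate 2 or 3, with library totals or with close pairs summed (adjusted p 0.0531 to 0.107). Of 9 electron carriers and other dehydrogenases, 2 rose and 2 fell (22.2% each) under shRad21_2 (-0.16). Under shRad21_1, 0 rose and 2 fell (22.2%), with a median of -0.15. Gpd2, which passes electrons from glycerol phosphate to ubiquinone, had 62.3, 62.2 and 57.7 CPM in shRad21_2, 72.6, 143 and 143 CPM in shRad21_1, and 189.5, 220.1 and 218 CPM in shNT and fell under shRad21_2 (log2 fold change -1.79, SE 0.22, edgeR adjusted p = 1.79e-04) and shRad21_1 (log2 fold change -0.81, SE 0.21, edgeR adjusted p = 0.0397). The shRad21_1 call for Gpd2 did not hold without any single shNT library, in the fit of the 2 groups compared or with close pairs summed (adjusted p 0.0661 to 0.136). Cyc1, the cytochrome c1 of complex III that the symbol rule does not catch, stood slightly higher under shRad21_2 (log2 fold change 0.21, SE 0.07, edgeR adjusted p = 0.0406). Dhodh stood at 0.25 (SE 0.09, edgeR adjusted p = 0.0474) and Etfdh at -0.24 (SE 0.08, edgeR adjusted p = 0.0315). These 3 calls were not stable: of 16 alternatives, 8 ended that of Cyc1 (adjusted p up to 0.205), 11 that of Dhodh (up to 0.207, and 0.0664 with the replicate number as a block) and 7 that of Etfdh (up to 0.128). Leaving out shNT replicate 2 or 3 or shRad21_2 replicate 3 ended the call of Dhodh, Cyc1 and Etfdh alike.

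Of 44 assembly factors outside the symbol rule, 5 rose and 5 fell under shRad21_2 (median 0.02). These were 11.4% each, against 21.1% and 22.5% of all tested genes. Under shRad21_1, 1 rose (2.27%, against 4.19% of all genes) and 0 fell (median -0.08). Sco2, which delivers copper to complex IV, had 10.9, 10.6 and 10.3 CPM in shRad21_2, 9.84, 10.0 and 7.47 CPM in shRad21_1, and 4.15, 5.17 and 5.34 CPM in shNT and rose under shRad21_2 (log2 fold change 1.11, SE 0.15, edgeR adjusted p = 3.73e-04) and shRad21_1 (log2 fold change 0.90, SE 0.15, edgeR adjusted p = 0.00725). Pet117 rose under shRad21_2 (1.04 (SE 0.28, edgeR adjusted p = 0.0142)), as did Atpaf2, a factor for the head of ATP synthase (0.29 (SE 0.08, edgeR adjusted p = 0.0169)). Timmdc1, a complex I assembly factor, fell (-0.34 (SE 0.08, edgeR adjusted p = 0.00578)). The calls of Pet117 and Atpaf2 did not hold in 4 alternatives each, among them without shNT replicate 2 (adjusted p 0.0592 for Pet117 and 0.0534 for Atpaf2). Without that library 1 of the 44 rose and 2 fell, and without shNT replicate 3 it was 2 and 1.

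Of 21 glycolysis genes, 3 rose (14.3%) and 6 fell (28.6%) under shRad21_2 (median -0.04), against 21.1% and 22.5% of all tested genes. Under shRad21_1, 2 rose and 2 fell (9.52% each, against 4.19% and 5.63% of all genes), with a median of 0.08. Ldha, which makes lactate, had 921, 975 and 1151 CPM in shRad21_2, 763, 934 and 945 CPM in shRad21_1, and 733, 584 and 605 CPM in shNT and rose under shRad21_2 (log2 fold change 0.66, SE 0.12, edgeR adjusted p = 0.00209) and shRad21_1 (log2 fold change 0.46, SE 0.12, edgeR adjusted p = 0.0448). The shRad21_1 call for Ldha did not hold in 8 of 16 alternatives: with the replicate number as a block (edgeR adjusted p = 0.0636), with library totals, in the fit of the 2 groups compared, with close pairs summed (0.346), and without shNT replicate 2 or 3 or shRad21_1 replicate 2 or 3 (0.123 to 0.175). Without shRad21_1 replicate 1, 6 glycolysis genes rose under shRad21_1. Aldoc, the brain aldolase and a gene of astrocytes, had 106, 88.9 and 109 CPM in shRad21_2, 131, 313 and 308 CPM in shRad21_1, and 340.2, 409.8 and 416 CPM in shNT and fell under shRad21_2 (log2 fold change -1.94, SE 0.28, edgeR adjusted p = 4.51e-04). Eno2 and Hk1 fell too, by log2 fold changes of -2.05 and -1.14 (edgeR adjusted p = 7.11e-04 and 0.00114). Replicate 1 of shRad21_1 lay far below replicates 2 and 3 in Aldoc and Gpd2. Of 10 hypoxia response genes, 0 rose and 1 fell (10%) under shRad21_2 (-0.20). Under shRad21_1, 0 were called (0.24), and 1 passed an unadjusted p of 0.05. The gene that fell was Egln3, an oxygen sensor (-1.44 (SE 0.47, edgeR adjusted p = 0.0300)). Its call did not hold in 6 of 16 alternatives, among them limma-voom (0.0652), the replicate block (0.0506), and leaving out shNT replicate 1 or any single shRad21_2 library (adjusted p 0.0526 to 0.106). Bnip3 stood at -1.39 (SE 0.58, edgeR adjusted p = 0.0757), Adm at 0.23 (SE 0.15, edgeR adjusted p = 0.251) and Kdm3a at 0.14 (SE 0.09, edgeR adjusted p = 0.258), and none of the 3 passed.

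Levels differed widely between members. Per kilobase of principal transcript, Atp5b was highest, at 1149.0 ± 78.6 CPM in shRad21_2, 978 ± 2.68 in shRad21_1 and 1179 ± 32.1 in shNT (SD, n = 3 each). Atp5g2 followed at 578 ± 60.7, 560.0 ± 20.1 and 620.4 ± 11.4 in the same order of groups, while Cox4i1 at 494 ± 59.8, 431 ± 33.9 and 479 ± 8.77 and Atp5a1 at 496 ± 30.4, 419 ± 8.81 and 477 ± 28.5 differed by less than their spread. The lowest tested members were Cox6a2, at 1.64 ± 0.909, 0.567 ± 0.224 and 0.503 ± 0.440, and Cox7a1, at 0.573 ± 0.181, 1.18 ± 0.376 and 2.83 ± 1.57. Atp5b and Atp5g2 were the first and the second in the means of all 3 groups. By class, the median member of complex IV stood at 267 CPM per kilobase in shRad21_2, 219.6 in shRad21_1 and 230.3 in shNT, and that of complex II at 88.2, 97.0 and 109.1.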

How the data were processed

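Messenger RNA of 9 libraries was measured, 3 in each of the groups shRad21_2, shRad21_1 and shNT. The deposited table holds whole-number counts per gene symbol, not normalised by the authors. Per the submitters' processing notes, reads passed FastQC, cutadapt and Trim Galore, and were aligned with Bowtie2 to mm10 and counted with RSEM. Their versions, the annotation, the strand setting and the rounding are not stated in the labels. RSEM shares reads among close copies, so that paralogues and pseudogenes can trade counts.

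The deposited counts were tested with edgeR 4.0.16 in R 4.3.3 (limma 3.58.1), with TMM scaling, filterByExpr by group (13560 of 24503 genes kept), a single fit of 3 group means over all 9 libraries, two-sided quasi-likelihood tests and Benjamini-Hochberg adjustment over all genes tested, at 0.05. Of the rows, 6715 were 0 in all libraries. CPM use TMM-scaled totals, and the SE is that of the fit. On unscaled library totals, 3 counts correspond to 0.0643 to 0.0863 CPM. The script was tested on simulated counts in which 200 genes were changed. It recovered 49% of 1.5-fold changes for shRad21_2 and 39% for shRad21_1, and 83% and 79% of 2-fold changes. False calls numbered 12 and 8. Smaller changes were not simulated, so a member not called may still differ. Levels per kilobase use GENCODE principal transcripts, found for 91 of the 92 genes by name (Atp5o had no unique entry). As alternatives, edgeR was run with the size factors of DESeq2 1.42.0 and with unscaled library totals. Others were the DESeq2 Wald test, limma-voom, no and a stricter filter, fits of 2 groups, a replicate block, close pairs of libraries summed, the first libraries of shNT and shRad21_1 left out, and each library left out.

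The members and lists were chosen with earlier results of these data known. Values per library are given for Rad21, for the 4 members of each class with the smallest p for shRad21_2, for members called under shRad21_1, for up to 10 called between the hairpins, for the paralogue sets and for 4 genes of each related list, a pair of which are not reported here. This named 47 members. Wdr77, Ino80dos and other genes outside the rule were chosen after their values were seen. Same-numbered libraries deviated together between shRad21_1 and shNT (correlations of deviations over genes 0.234, 0.107 and 0.102), all over the 0.1 set for pairing. Replicates 2 of shNT and 3 of shRad21_1 correlated more (0.155). The other comparisons showed no pairing (0.01 to 0.08).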

Additional observations from a re-analysis of the deposited data

Results flagged for a closer look

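In 10 genes the fold changes against shNT had opposite signs under the 2 hairpins, and shRad21_2 differed from shRad21_1 by an edgeR adjusted p under 0.05. All 10 are among the 12 members called higher between the hairpins above, so they largely restate those calls. The share of all tested genes that meet this rule was not counted. The log2 differences between shRad21_2 and shRad21_1 were 0.52 for Ndufc2, 0.38 for Cox5b, 0.34 for Ndufa12, 0.31 for Atp5o and 0.30 for Cox6c. They were 0.28 for Atp5l, 0.27 for Atp5g1, 0.25 for Cox8a, 0.24 for Atp5g3 and 0.24 for Atp5a1. None of the 10 was called against shNT under shRad21_2, where Cox8a (0.02), Atp5a1 (0.06) and Atp5g3 (0.07) lay close to 0 and changed sign in some alternatives, and under shRad21_1 only Ndufc2 was called, as lower. Replicate 3 of shRad21_2 was the highest library of its group in each of the 10. Without it, Ndufc2 and Ndufa12 kept their calls between the hairpins.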

How the results depend on the processing

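With a single library of the 2 groups compared left out, 5 to 15 members fell and 0 to 10 rose under shRad21_2; 0 to 2 fell and 0 rose under shRad21_1; between the hairpins 1 to 24 were higher under shRad21_2 and 2 lower. Medians ranged from -0.09 to 0.04 under shRad21_2, changing sign without shRad21_2 replicate 1 or 2, from -0.18 to -0.13 under shRad21_1, and from 0.03 to 0.18 between the hairpins. Without a library of the third group, 11 to 14 members were called under shRad21_2, 6 to 10 under shRad21_1 and 5 to 8 between the hairpins. With close pairs of libraries summed, 0 rose and 5 fell under shRad21_2, 0 fell under shRad21_1, and 1 was higher between the hairpins. In fits of the 2 groups compared, 18 fell under shRad21_1 and 1 was higher between the hairpins. With library totals, 1 rose and 14 fell under shRad21_2, with 69 of 87 values below 0, and 3 were higher between the hairpins. All genes then split into 15.98% higher and 26.1% lower under shRad21_2 (21.1% and 22.5% with TMM) and 8.08% and 17.0% between the hairpins (11.9% and 14.4%). With no filter, 5 were higher between the hairpins. With replicate 1 of both shRad21_1 and shNT left out, 1 fell under shRad21_1. With the replicate number as a block, 2 rose and 10 fell under shRad21_2, 6 fell under shRad21_1 (5 of them the same genes), and 9 were higher and 2 lower between the hairpins. The causes were not tested. Sdha, Atp5f1, Cox6b2, Cox7a1 and Ndufaf7 under shRad21_2, and Sdha, Atp5f1 and Ndufc2 between the hairpins, kept their calls in every alternative that tested them; none of the 6 calls under shRad21_1 did. Over 2010 alternative values of single genes, 1819 kept direction and side of the threshold, 164 lost and 27 gained a call, and 0 called values turned round, while 39 uncalled values changed sign. Genes of few counts, such as Cox7a1 and Cox6a2, are limited by depth.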
